A study of Mus musculus with 188 samples.

Results

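Free hemoglobin (Hb) at 200 µM was compared with medium control after 24 h in organotypic brain slice cultures. The comparison holds 20 of the 188 libraries of the series, namely the 10 libraries whose labels give Hb_200uM_24h and the 10 mapped libraries of the 24 h control in the sequencing batches that hold Hb (batches 2 and 3). Cultures were coronal brain slices of adult C57BL/6J mice of both sexes, kept on membrane inserts and exposed on culture day 7, and bulk mRNA of each culture was sequenced. Every culture was wild type, and controls received medium without Hb. The Hb was of human origin. As a model, such slices are cut from perfused brains, share an insert in pairs and lack blood flow and infiltrating blood cells. In each group 8 libraries came from batch 2 and 2 from batch 3. Library names carry a round code, E1 or E2, and 7 control and 8 Hb libraries came from round E1, the rest from E2. Names also carry a code of a sex letter and a number, which the labels do not explain. The 10 control libraries carry 9 such codes and the 10 Hb libraries carry 8, so some libraries of 1 group may share an animal, and p-values then measure the spread between libraries. Several codes also occur in both groups, with 10 pairs of a control and an Hb library sharing a code. Control and Hb libraries may thus share an animal too, and the main fit does not pair them.

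Hb released from lysed red blood cells is oxidized and gives up its heme. Heme is cut open by heme oxygenase, which frees iron, and iron is stored in ferritin or exported by ferroportin. Heme and electrophiles also release the transcription factor NRF2 from KEAP1, and heme itself removes the repressor BACH1. NRF2 with a small MAF partner then raises genes of glutathione synthesis, NADPH supply and detoxification. Iron-regulatory proteins act after transcription, stabilizing the transferrin receptor mRNA when iron is low, and heme represses the first enzyme of its own synthesis.

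Read counts per library ran from 27567373 to 51447782 in the control (median 45434495) and from 24712931 to 51586623 with Hb (median 45660512). Levels are given as CPM, the counts relative to the TMM-scaled library total, and fold changes as the log2 of Hb over control with the standard error (SE), from a fit with batch and round as terms. A gene was called at an adjusted p under 0.05 (edgeR's quasi-likelihood F test, Benjamini-Hochberg over all genes tested). Round alone was called for 35.8% of genes and batch for 6.37%. The summed level of 4 choroid plexus markers varied from 0.971 to 966 CPM among controls and from 0.743 to 1606 CPM with Hb, with medians of 230 and 154 CPM. In the fit all 4 markers lay above 0, none of them called, with a median log2 fold change of 0.25, or 0.55 without Hb replicate 10 and 0.90 in batch 2 alone. The part of this tissue in the results was not tested beyond the fit with its level as a term, given with the cell type markers. Hb replicate 10 stood apart from the other libraries, with a median correlation of 0.963 to the others, and its lower astrocyte marker sum of 2758 CPM compared with a lowest control of 6179 CPM. The calls, and the list counts that shifted most, are therefore also given without it. In bulk tissue, fewer cells of a type and less RNA per cell cannot be told apart.

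Of 16271 genes tested, 24 were called, which is 0.148%, with 20 higher (0.123%) and 4 lower (0.0246%) in Hb. The 20 higher genes included 4 of the glutathione list (Gclm, Slc3a2, Gsr and Abcc1), 2 of NADPH production (Pgd and G6pdx), the iron exporter gene Slc40a1 and the cytokine gene Il19. The lower genes were Pi15, Tfrc, Alas1 and Plce1. Only 5 of the 24 differed by 1.5-fold or more, and the median log2 fold change of all tested genes was -0.0018. The libraries of the groups did not overlap for 4 genes of all those tested, Il19, Slc3a2 and Ikbkg above and Alas1 below the control, and all 4 were called. Without Hb replicate 10, 23 genes were called, 21 of them among the 24. At an unadjusted p under 0.05 there were 335 genes higher and 264 lower. DESeq2 called 59 genes, including all 24. Fits that paired libraries called far fewer, 2 genes with a block by library name code and 5 with a block by title number. These were all among the 24, and all 24 kept their direction in both fits. In batch 2 alone 18 genes were called and 16 of the 24 remained, and all 24 kept their direction. In batch 3, with 2 control and 2 Hb libraries, 23 of the 24 had the direction of the whole comparison, and Tfrc did not. These were mean differences without a round term, and both Hb libraries came from round E1 while control replicate 11 came from E2.

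**Figure D1:**
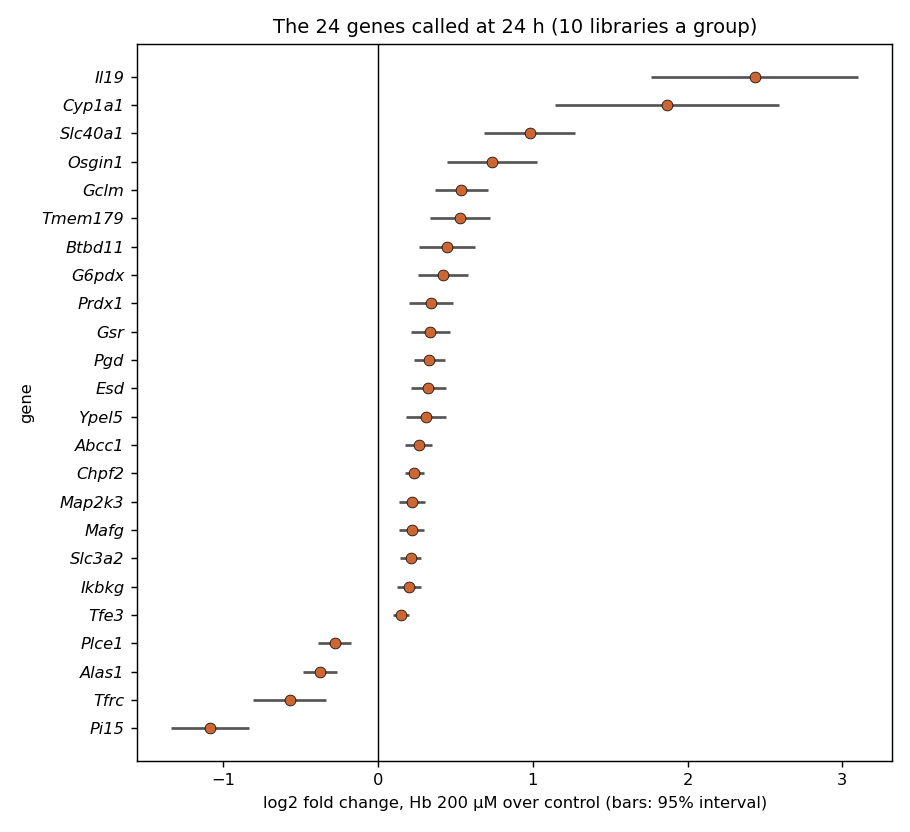
Log2 fold change of Hb 200 µM over control for the 24 called genes, one row a gene, with points for the estimate and bars for its 95% interval (10 libraries a group). Il19 and Cyp1a1 have the highest estimates and the widest bars, most others lie between 0.15 and 0.74, and Plce1, Alas1, Tfrc and Pi15 lie below 0.

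Of the iron genes, Slc40a1 was called higher and Tfrc lower. Slc40a1 (ENSMUSG00000025993) encodes ferroportin, the cellular iron exporter. Its level was 11.4 CPM at the lowest, 19.2 at the median and 26.8 at the highest in controls, and 20.98, 34.9 and 53.3 CPM with Hb. All 10 Hb libraries lay above the control median and 7 above the highest control, and the groups overlapped at their edges. The log2 fold change was 0.98 (SE 0.14), a 1.97-fold rise, with an adjusted p of 0.00329 by edgeR. Tfrc encodes the transferrin receptor, through which cells take up iron. It ranged from 62.6 to 131 CPM in controls (median 111) and from 44.8 to 102 CPM with Hb (median 71.5), and 3 Hb libraries lay below the lowest control. Tfrc fell by 0.57 on the log2 scale (SE 0.11, adjusted p = 0.0389), to 0.672-fold of control. This call was kept in 6 of the 20 fits that each left out 1 library, with an adjusted p of up to 0.0969. In batch 3 the mean log2 level, taken without a round term, was 0.14 higher with Hb. There control replicate 10 of round E1 held 106 CPM and control replicate 11 of round E2 held 62.6 CPM. The Hb libraries of batch 3, both of round E1, held 80.5 and 99.5 CPM.

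The 18 tested genes of iron uptake, storage and export held no further call (1 higher, 1 lower, median log2 fold change -0.00051). Ferritin is the iron store, built of heavy and light chains. Fth1, the heavy chain, had a median of 4749 CPM in controls and 5875 CPM with Hb (log2 fold change 0.28, SE 0.098, adjusted p = 0.929), and the libraries of both groups covered much the same range. Ftl1, the light chain, had medians of 3118 and 3460 CPM (log2 fold change 0.28, SE 0.13, adjusted p = 0.9999). Reads of Ftl1 can be shared with near-identical copies elsewhere in the genome. Hamp, the hepcidin gene, had too few reads to be tested, with 6 counts over all 20 libraries.

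Alas1 (ENSMUSG00000032786) encodes the rate-limiting enzyme of heme synthesis. It lay between 54.5 and 68.8 CPM in controls (median 59.9) and between 40.997 and 52.01 CPM with Hb (median 47.8), so every Hb library was below every control. Alas1 fell by 0.38 on the log2 scale (SE 0.052, adjusted p = 0.00299). The other 7 enzymes of heme synthesis were not called, and their log2 fold changes ran from -0.038 for Cpox to 0.13 for Fech, the enzyme that inserts the iron.

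No gene of heme breakdown and transport passed the test (0 of 11 called, 7 above 0, median log2 fold change 0.054). At an unadjusted p under 0.05 there were 3, and DESeq2 called Hmox1 and Slc48a1 among them. Hmox1, which encodes heme oxygenase 1, had 671 CPM at the lowest, 1425 at the median and 2594 at the highest in controls, against 1050, 2071 and 3543 CPM with Hb. With 9 of 10 Hb libraries above the control median and 4 above the highest control, the log2 fold change was 0.71 (SE 0.18), with an adjusted p of 0.323. Slc48a1, a heme transporter of endolysosomal membranes, had medians of 264 and 312 CPM (log2 fold change 0.27, SE 0.060, adjusted p = 0.127). Blvrb, biliverdin reductase B, had medians of 26.5 and 28.6 CPM (log2 fold change 0.29, SE 0.087, adjusted p = 0.657). For both of these genes all 10 Hb libraries lay above the control median.

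Neither receptor for the scavenger complexes passed the test. Cd163 encodes the macrophage receptor for Hb bound to haptoglobin, and its range was 1.27 to 5.33 CPM in controls and 1.99 to 7.05 CPM with Hb (log2 fold change 0.32, SE 0.26, adjusted p = 0.9999). Lrp1, the receptor for heme bound to hemopexin, had medians of 1378 and 1337 CPM and a log2 fold change of -0.018 (SE 0.09, adjusted p = 0.9999), whose sign changed between settings. Of the scavengers themselves, Hp had medians of 13.02 and 12.6 CPM and Hpx of 0.415 and 0.395 CPM, and neither was called.

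**Figure D2:**
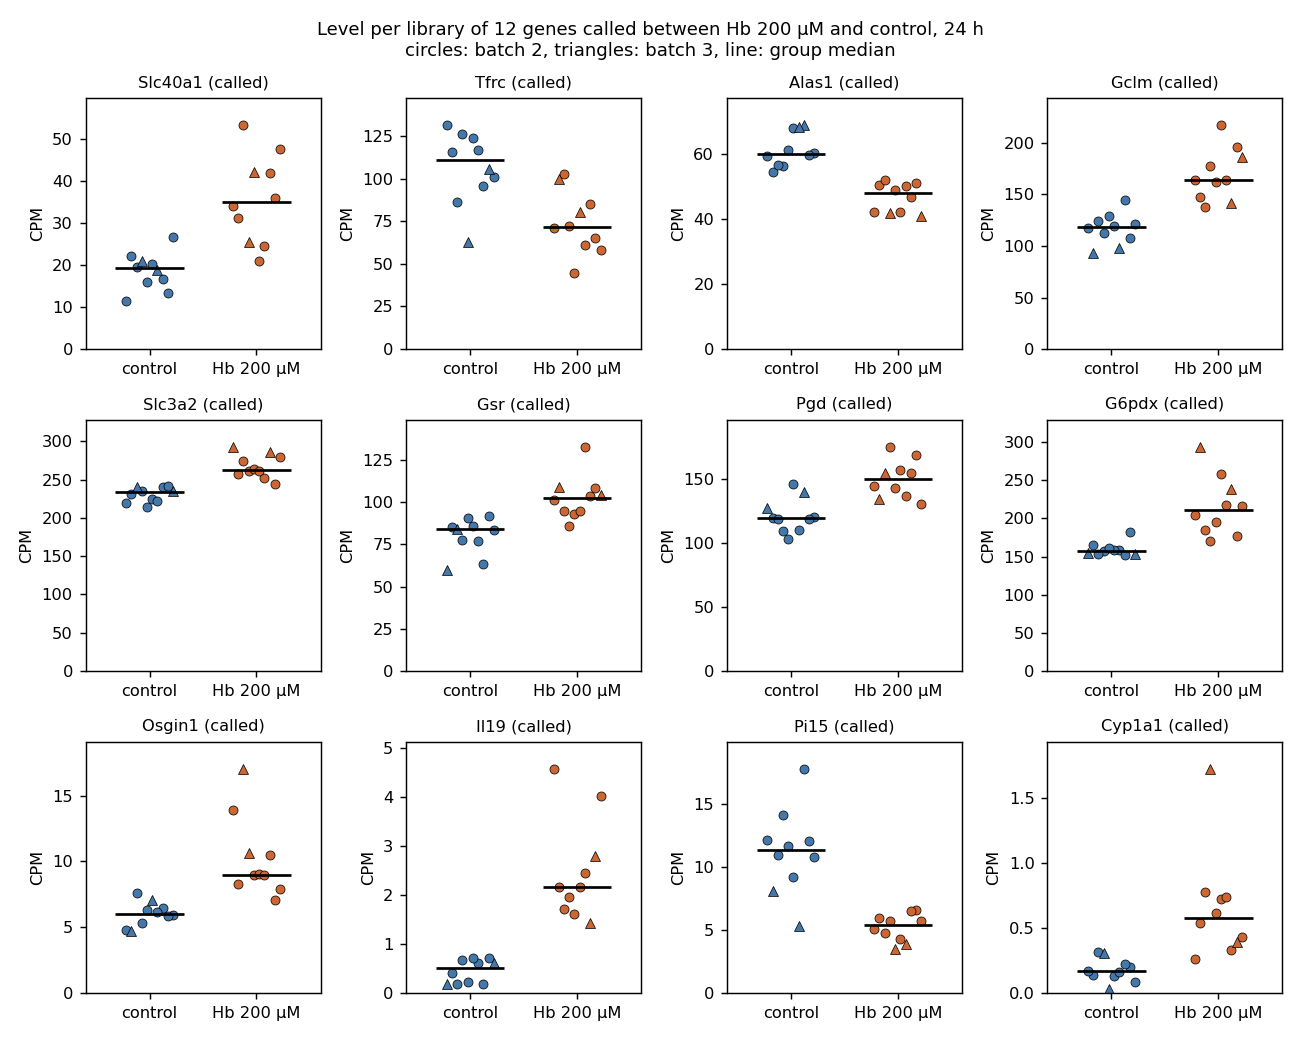
Level in CPM of 12 called genes in each library, control at the left and Hb 200 µM at the right of each panel, with circles for batch 2, triangles for batch 3 and a line at the median. Alas1, Slc3a2 and Il19 show no overlap between groups, while Tfrc and Pgd overlap and Cyp1a1 with Hb includes 1 library at 1.73 CPM.

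Among the lists, which were chosen with earlier results of these data known, cystine import and glutathione held the most calls. Of its 15 genes, 4 were called higher and none lower, beside 0.123% higher and 0.0246% lower of all genes tested. In this list 13 lay above 0, and the median log2 fold change was 0.21. Gclm (ENSMUSG00000028124), the modifier subunit of the enzyme that limits glutathione synthesis, lay at 93.5, 118 and 145 CPM (lowest, median, highest) in controls and at 138, 164 and 217 CPM with Hb. All Hb libraries lay above the control median and 8 above the highest control, and the log2 fold change was 0.54 (SE 0.08, adjusted p = 0.00562). Slc3a2 is the heavy chain shared by the cystine importer and other amino acid transporters. It ranged from 214 to 242 CPM in controls and from 244 to 293 CPM with Hb, with no overlap, and the change was small, at a log2 fold change of 0.21 (SE 0.032, adjusted p = 0.00588). Gsr, glutathione reductase, regenerates glutathione with NADPH. It had medians of 83.9 and 102 CPM, 9 Hb libraries lay above the highest control, and the log2 fold change was 0.34 (SE 0.060, adjusted p = 0.0253). Abcc1, which exports glutathione conjugates, had medians of 66.2 and 78.9 CPM (log2 fold change 0.26, SE 0.041, adjusted p = 0.00689), with 9 Hb libraries above the highest control.

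Of the 11 other members none was called by edgeR, and DESeq2 called Gclc besides the 4. Slc7a11, the light chain of the cystine importer, varied from 61.8 to 227 CPM in controls and from 153 to 454 CPM with Hb (log2 fold change 0.68, SE 0.19, adjusted p = 0.5005). Gclc, the catalytic subunit partnered by Gclm, had medians of 88.5 and 113 CPM (log2 fold change 0.36, SE 0.085, adjusted p = 0.198), and all 10 Hb libraries exceeded the control median. Among 18 glutathione S-transferases no member was called (median log2 fold change 0.027). Gstm1 belongs to the genes whose rise with Hb the study describes from 48 h data, with a similar pattern at 24 h. Here it had medians of 172 and 202 CPM and a log2 fold change of 0.31 (SE 0.091, adjusted p = 0.657). Reads of this family can fall to near-identical relatives.

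NADPH is the reductant for glutathione and thioredoxin. Both called genes of the 11 tested for NADPH production, Pgd and G6pdx, belong to the oxidative pentose phosphate pathway. Pgd lay at 103, 120 and 147 CPM in controls and 131, 150 and 175 CPM with Hb, with every Hb library above the control median and 5 above the highest control (log2 fold change 0.33, SE 0.047, adjusted p = 0.00329). G6pdx, the entry enzyme, ranged from 152 to 183 CPM in controls and from 171 to 294 CPM with Hb (log2 fold change 0.42, SE 0.076, adjusted p = 0.0263), a call kept in 15 of the 20 fits that left out 1 library (adjusted p up to 0.0736). In the non-oxidative branch and beside it, Tkt (log2 fold change 0.24, adjusted p = 0.5005) and Me1, malic enzyme (0.21, adjusted p = 0.772), were not called.

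In the list of NRF2-inducible detoxification genes, 14 of 15 tested members lay above 0 and the median log2 fold change was 0.29. By edgeR 1 of them was called, and by DESeq2 6 (Osgin1, Nqo1, Aox1, Ephx1, Cbr3 and Adh7). The gene called by both, Osgin1, an oxidative stress-induced growth inhibitor, rose from a median of 6.04 to 9.01 CPM, with Hb libraries from 7.08 to 17.05 CPM and 9 of them above the highest control (log2 fold change 0.74, SE 0.14, adjusted p = 0.0273). The call was lost in batch 2 alone and kept in 14 of the 20 fits that left out 1 library (adjusted p up to 0.0896). Aox1, aldehyde oxidase, came close to the threshold with medians of 26.4 and 34.7 CPM (log2 fold change 0.49, SE 0.10, adjusted p = 0.0604). Nqo1, the quinone reductase used widely as an NRF2 readout, lay at 7.79, 10.4 and 15.2 CPM in controls and at 13.5, 14.9 and 24.9 CPM with Hb. All 10 Hb libraries exceeded the control median but only 4 exceeded the highest control, and the log2 fold change was 0.61 (SE 0.13, adjusted p = 0.0707). Ephx1 (log2 fold change 0.29, adjusted p = 0.163) and Cbr3 (0.35, adjusted p = 0.193), an epoxide hydrolase and a carbonyl reductase, were not called by edgeR.

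Prdx1, a peroxiredoxin that removes hydrogen peroxide, was the called member among 13 genes of the thioredoxin system. It ranged from 506 to 831 CPM in controls and from 641 to 1012 CPM with Hb, and 3 Hb libraries lay above the highest control (log2 fold change 0.34, SE 0.066, adjusted p = 0.0412). The call was held in 5 of the 20 fits that left out 1 library. Txnrd1, thioredoxin reductase 1 (log2 fold change 0.33, SE 0.07, adjusted p = 0.0976), and Srxn1, sulfiredoxin (0.62, SE 0.14, adjusted p = 0.130), were not called by edgeR, whereas DESeq2 called both besides Prdx1. Without Hb replicate 10, in which Srxn1 reached 399 CPM, Srxn1 was called and Prdx1 was not. Of 9 genes for NRF2 and its regulators, Mafg, a small MAF partner of NRF2, was called, with medians of 103 and 120 CPM (log2 fold change 0.22, SE 0.039, adjusted p = 0.0253), and Nfe2l2, Keap1 and Bach1 were not.

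**Figure D3:**
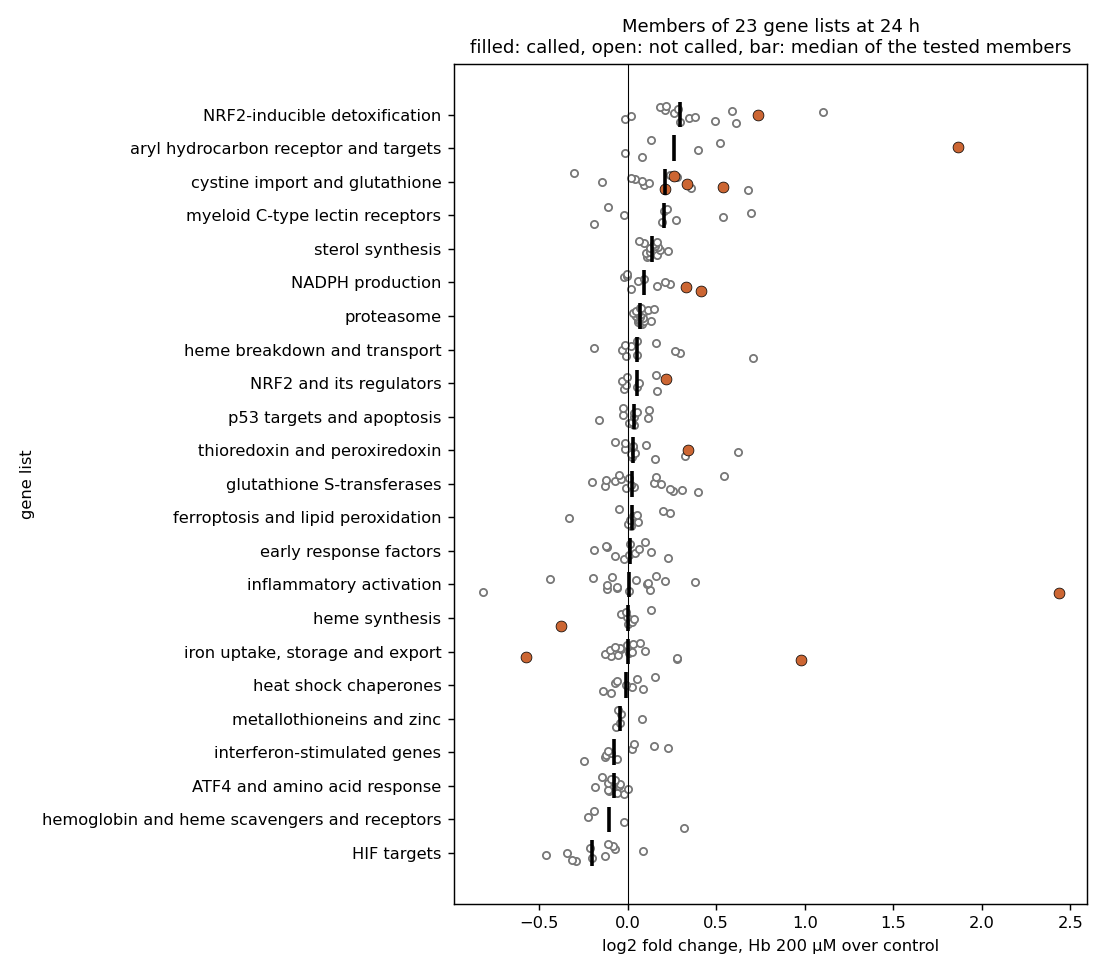
Log2 fold change of the tested members of 23 gene lists, one row a list ordered by its median (bar), with filled points for called genes and open points for the others. The upper rows hold NRF2-inducible detoxification, aryl hydrocarbon receptor targets and glutathione, with medians of 0.29, 0.26 and 0.21, and the lowest row holds HIF targets at -0.20.

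Promoters of the called genes were searched for the core of the antioxidant response element, the site that NRF2 binds with a small MAF protein. The window runs from 250 bases before to 50 bases after each start site in RefSeq (GRCm38.p6, a build other than that of the counts), and the motif TGACNNNGC was searched on both strands. Of the 24 genes 20 had an entry, and the motif was found for 7 of 17 higher and 0 of 3 lower genes. By comparison, 12.4% of all promoters and 16.6% of tested genes with an entry held it. A match is a description of letters and not a bound site. The 6 matches before the start site are shown because they belong to genes that rose together, with the motif in capitals, as read on the coding strand of the gene. Where the capitals start with GC, the motif lies on the opposite strand.
Gclm (chr3:122245403-122245451, plus strand): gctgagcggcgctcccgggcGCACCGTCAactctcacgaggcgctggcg
Prdx1 (chr4:116685446-116685494, plus strand): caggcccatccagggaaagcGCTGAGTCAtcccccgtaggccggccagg
Mafg (chr11:120633741-120633789, minus strand): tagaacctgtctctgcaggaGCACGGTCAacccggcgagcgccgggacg
G6pdx (chrX:74428909-74428957, minus strand): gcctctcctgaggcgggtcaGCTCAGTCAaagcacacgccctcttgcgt
Ikbkg (chrX:74424554-74424602, plus strand): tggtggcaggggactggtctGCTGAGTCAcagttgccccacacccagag
Tmem179 (chr12:112511161-112511203, minus strand): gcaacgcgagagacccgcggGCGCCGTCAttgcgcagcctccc
The match of Pgd lies just after one of its start sites. Prdx1 and Ikbkg share the letters GCTGAGTCA, and G6pdx and Gclm differ from them inside the spacer of the motif.

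Cyp1a1, the cytochrome that serves as the standard target of the aryl hydrocarbon receptor, was the called member of 6 tested genes of that pathway. It was close to the detection limit, at 0.034, 0.168 and 0.318 CPM in controls and 0.261, 0.576 and 1.73 CPM with Hb. In 9 Hb libraries it exceeded the highest control (log2 fold change 1.87, SE 0.34, adjusted p = 0.0263). With 13 of the 20 fits that left out 1 library holding the call, the adjusted p reached 0.102. Cyp1b1 (log2 fold change 0.52, adjusted p = 0.223) and Ahrr, the receptor's repressor (0.40, adjusted p = 0.205), were not called by edgeR, and DESeq2 called both besides Cyp1a1.

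Il19 (ENSMUSG00000016524), a cytokine of the IL-10 family, had the largest fold change of the called genes. It lay between 0.172 and 0.715 CPM in controls (median 0.510) and between 1.44 and 4.58 CPM with Hb (median 2.16), so that the lowest Hb library held more than the highest control. The log2 fold change was 2.43 (SE 0.32), a 5.4-fold rise, with an adjusted p of 0.00171. The call was held in all 20 fits that left out 1 library. No other of the 17 tested genes of inflammatory activation was called by edgeR, while DESeq2 also called Acod1 lower. Of the 17, 9 lay above 0, and the median log2 fold change was 0.0098. Acod1, which makes itaconate in activated myeloid cells, was below the control median in all 10 Hb libraries, at medians of 0.833 and 0.525 CPM (log2 fold change -0.82, SE 0.22, adjusted p = 0.362). Ccl2, a monocyte chemokine, had medians of 47.6 and 63.4 CPM (log2 fold change 0.38, SE 0.12, adjusted p = 0.779), above the control median in all 10.

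The inflammatory genes that the study names, whose rise it describes from its 48 h data, did not pass the test at this dose and 24 h. Gpr84, a fatty acid receptor of activated microglia, ranged from 2.09 to 7.63 CPM in controls and from 1.52 to 7.12 CPM with Hb (log2 fold change 0.01, SE 0.23, adjusted p = 0.9999), and its sign changed between settings. Tnfrsf1a, the receptor for tumor necrosis factor, had medians of 207 and 226 CPM (log2 fold change 0.12, SE 0.046, adjusted p = 0.9999). Among 9 myeloid C-type lectin receptors edgeR called none, with 2 at an unadjusted p under 0.05, and DESeq2 called Clec4n. Clec4n (dectin-2) was above the control median in all 10 Hb libraries, with medians of 8.17 and 12.6 CPM (log2 fold change 0.70, SE 0.17, adjusted p = 0.214), and Clec4d had medians of 25.6 and 34.8 CPM (0.54, SE 0.18, adjusted p = 0.798).

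**Figure D4:**
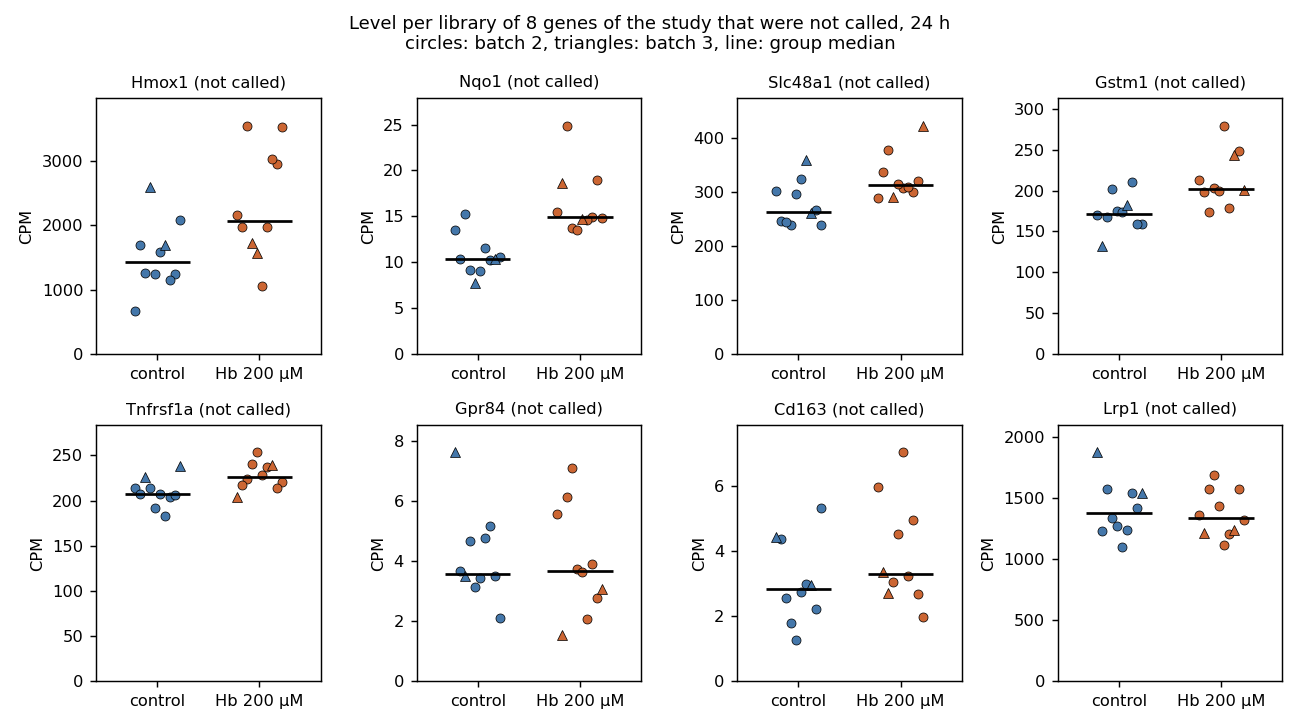
Level in CPM of 8 genes named by the study that were not called by edgeR at 24 h. Control is at the left and Hb 200 µM at the right of each panel, with circles for batch 2, triangles for batch 3 and a line at the median. Hmox1 spans from 671 to 2594 CPM in controls and from 1050 to 3543 CPM with Hb, and Gpr84, Cd163 and Lrp1 cover similar ranges in both groups.

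The smallest p of all genes belonged to Pi15 (ENSMUSG00000067780), which encodes a secreted protein of the CAP family related to peptidase inhibitors. It lay at 5.33, 11.3 and 17.8 CPM in controls and at 3.45, 5.40 and 6.60 CPM with Hb, and 5 Hb libraries were below the lowest control. Pi15 fell by 1.09 on the log2 scale (SE 0.12, adjusted p = 0.000353), and this was the one call held by every alternative and in all 20 fits without 1 library. Plce1, a phospholipase C, fell by 0.28 (SE 0.051, adjusted p = 0.0263), with medians of 183 and 149 CPM and 7 Hb libraries below the lowest control, and its call was kept in 11 of the 20 fits that left out 1 library (adjusted p up to 0.0854).

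The remaining called genes rose by small amounts. Ikbkg encodes NEMO, the regulatory subunit of the kinase that activates NF-κB, and it ranged from 54.05 to 65.2 CPM in controls and from 65.7 to 72.7 CPM with Hb, without overlap (log2 fold change 0.20, SE 0.036, adjusted p = 0.0255). Its exons overlap those of G6pdx on the opposite strand over 418 bases, or 5.15% of its exon bases and 13.6% of those of G6pdx (GENCODE M21). Counting was not stated to use strand, so reads there cannot be assigned to one gene. Map2k3, a kinase upstream of p38, had medians of 32.3 and 38.1 CPM (log2 fold change 0.22, SE 0.039, adjusted p = 0.0236). Tfe3, a transcription factor of lysosomal genes, had the smallest change, at 62.5 and 68.9 CPM (0.15, SE 0.024, adjusted p = 0.0133). Esd, an esterase that acts on S-formylglutathione, had medians of 160 and 205 CPM (0.32, SE 0.053, adjusted p = 0.0119).

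Chpf2, a chondroitin polymerizing factor, had medians of 73.3 and 85.4 CPM, and 9 Hb libraries exceeded the highest control (log2 fold change 0.23, SE 0.029, adjusted p = 0.00152). Over 44.1% of its exon bases it overlaps Smarcd3 on the other strand, which was not called (log2 fold change -0.035, adjusted p = 0.9999). Ypel5 (log2 fold change 0.31, adjusted p = 0.0431), Btbd11 (0.45, adjusted p = 0.0387) and the membrane protein gene Tmem179 (0.53, adjusted p = 0.0202) completed the calls. Those of Ypel5 and Btbd11 were held in 4 and 9 of the 20 fits that left out 1 library.

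Several lists held no call but lay to one side of 0. All 24 proteasome subunits tested had estimates above 0 with a median log2 fold change of 0.071, 14 of them at an unadjusted p under 0.05, and DESeq2 called Psmd1 and Psmd11. The largest estimate was that of Psmd11, with medians of 95.1 and 102 CPM (log2 fold change 0.15, SE 0.038, adjusted p = 0.236). All 14 genes of sterol synthesis were above 0, with a median of 0.14 and Insig1 at 0.23 (SE 0.079, adjusted p = 0.891). The sterol median was 0.092 without Hb replicate 10 and 0.086 in batch 2 alone. Below 0 lay 10 of 11 HIF targets (median -0.20) and 12 of 13 genes of the ATF4 and amino acid response (median -0.079), none of them called. For HIF targets, 8 of 11 lay below 0 without Hb replicate 10 (median -0.14) and in batch 2 alone (median -0.098), and 9 of 11 with 1 library per name code (median -0.083). Without Hb replicate 10, 10 of 11 genes of heme breakdown and transport lay above 0, and 4 of 11 of the p53 list where 8 had with it. Genes of NADPH production then lay above 0 in 11 of 11 instead of 8, and astrocyte markers in 4 of 8 instead of 1. Over all tested genes 7971 of 16271 lay above 0. Members of a list are not independent replicates of the condition.

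No member was called in the lists of heat shock chaperones (9 tested), p53 targets and apoptosis (11), interferon-stimulated genes (10), metallothioneins and zinc (5), early response factors (12) or ferroptosis and lipid peroxidation (10). Bag3, a co-chaperone, had a log2 fold change of 0.15 (adjusted p = 0.769). Bax, which promotes cell death, had a log2 fold change of 0.11 (adjusted p = 0.9999).

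Cell type markers did not differ between groups by this test. No marker was called for neurons, astrocytes, oligodendrocyte lineage, microglia, border macrophages, endothelial cells, pericytes and fibroblasts or choroid plexus. Microglial markers summed to 388 to 1550 CPM in controls (median 827) and to 357 to 1719 CPM with Hb (median 765), and neuronal markers to 524 to 777.3 CPM and 509 to 747 CPM. In the fit 7 of 9 microglial markers lay above 0, with a median log2 fold change of 0.071. It was 8 of 9 without Hb replicate 10 (median 0.20) and in batch 2 alone (0.37), and 5 of 9 with the sex letter as a term (0.034). Border macrophage markers summed to a median of 99.4 CPM in controls and 121 CPM with Hb, with 5 of 6 above 0. Endothelial markers summed to 64.8 to 318 CPM in controls (median 84.5) and to 60.2 to 108 CPM with Hb (median 82.1). They were below 0 in 7 of 7, with a median log2 fold change of -0.26. That log2 fold change was -0.33 without Hb replicate 10, with 6 of 7 below 0, and -0.42 with batch as the only term. All neural cell classes had their defining markers, and no erythroid marker had enough reads to be tested. A fit with the choroid plexus level as a further term, added after seeing the data, called 28 genes including all 24.

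At 48 h the same dose was compared with its own control in other libraries (10 Hb and 9 control). Some of these libraries carry name codes also used at 24 h, and both times were fitted together, so they are not fully independent. All 24 genes had the same direction there and 20 were called, whereas 0.438% of all tested genes were called at 48 h (72 of 16438), 0.371% higher and 0.0669% lower. The 4 not called were Alas1, Btbd11, Tmem179 and Tfe3. Several genes that missed the threshold at 24 h passed it at 48 h, among them Hmox1 (log2 fold change 0.84, SE 0.20, adjusted p = 0.0387), Nqo1 (0.90, adjusted p = 0.000138), Gstm1 (0.57, adjusted p = 0.000371), Slc48a1 (0.38, adjusted p = 0.00223) and Gpr84 (0.86, adjusted p = 0.033).

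The difference between the times was tested for itself. No gene was called for the interaction of Hb with time (0 of 16438, with 228 at an unadjusted p under 0.05), and DESeq2 called 0, with 248 at that p. The lowest p among the named genes was that of Gpr84, whose effect was 0.83 higher at 48 h on the log2 scale (95% interval 0.27 to 1.40, adjusted p = 0.9998). Ikbkg followed (0.10, interval 0.0085 to 0.20), then Gstm1 (0.27, interval 0.013 to 0.53) and Prdx1 (0.25, interval -0.015 to 0.51). For Hmox1 the effect at 48 h was 0.11 higher (interval -0.45 to 0.66) and for Slc40a1 0.07 higher (interval -0.40 to 0.53), and these intervals leave room for sizeable differences of either sign.

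Raising the dose to 400 µM for 24 h (10 libraries, set against the same controls) gave no gene that differed from 200 µM (0 of 16270, with 135 at an unadjusted p under 0.05, and DESeq2 called 0, with 153 at that p). Against control 71 genes were called at 400 µM (0.436%, 0.381% higher and 0.0553% lower), among them all 24. The estimates at 400 µM were further from 0 than at 200 µM for 21 of the 24 genes, but both doses share their controls, so this count is no independent support. The smallest p among named genes was that of Gclm, at medians of 163 CPM for 200 µM and 200 CPM for 400 µM (difference 0.24 on the log2 scale, 95% interval 0.064 to 0.41, unadjusted p = 0.00858). Differences of Prdx1 (0.17, interval 0.031 to 0.32), Slc3a2 (0.087, interval 0.014 to 0.16), Esd (0.12, interval 0.008 to 0.23) and Ikbkg (0.076, interval 0.0048 to 0.15) were likewise small and not called. Against control, Hmox1 had a log2 fold change of 0.81 at 400 µM (adjusted p = 0.0170) and Nqo1 of 0.80 (adjusted p = 0.000177).

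Hb bound to haptoglobin (HbHp, 200 µM, 24 h) was measured in 8 libraries, all of batch 3 and round E2, a combination that holds no library of free Hb at 200 µM for 24 h and 1 of the 24 h controls. The difference from free Hb therefore rests on the batch and round terms, and treatment and that combination cannot be told apart without them. With both terms 4 of 16408 genes differed (0.0244%), Marcks, Gm10033, Gpcpd1 and Lrif1, named after their values were seen, all higher in HbHp and none among the 24. With batch alone 824 differed. Against control, 57 genes were called for HbHp (0.347%, 0.335% higher and 0.0122% lower), 11 of them among the 24. All 24 had the same direction there, but the controls are shared, so this is no independent support. For the named genes with the lowest p, the HbHp median stood at 80.5 CPM for Ikbkg against 67.5 CPM for free Hb (difference 0.26, 95% interval 0.14 to 0.37, adjusted p = 0.0987) and at 208 against 163 CPM for Gclm (0.51, interval 0.25 to 0.77, adjusted p = 0.151). Alas1 stood at 62.9 against 47.5 CPM (0.33, interval 0.16 to 0.50, adjusted p = 0.151), Prdx1 at 1268 against 771 CPM (0.41, interval 0.20 to 0.63, adjusted p = 0.160) and Esd at a difference of 0.23 (interval 0.055 to 0.40). Hmox1 had medians of 3884 and 2055 CPM, and its fitted difference with both terms was 0.17 (interval -0.38 to 0.73, adjusted p = 0.926). Against control, Tfrc had a log2 fold change of -0.09 with HbHp (adjusted p = 0.939) and Alas1 of -0.04 (adjusted p = 0.934).

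Heme-albumin at 200 µM for 24 h was sequenced in batch 1 with 10 control libraries of its own, so its effect was compared with that of Hb as a difference of effects. Set and treatment pair cannot be told apart beyond the subtraction of each set's controls. All 24 genes had the same direction under heme-albumin and 23 were called, beside 13.6% of all genes tested there (2204 of 16235, 7.61% higher and 5.96% lower). Cyp1a1 was the exception, with a log2 fold change of 1.37 (adjusted p = 0.0573). The estimate was further from 0 than with Hb for 20 of the 24.

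The effects themselves differed for 108 of 16235 genes (0.665%, 0.179% higher and 0.487% lower for Hb), of which 7 were among the 24, all with the estimate further from 0 under heme-albumin. Alas1 fell by 0.92 under heme-albumin, from a median of 67.7 to 35.4 CPM, and by 0.38 under Hb (difference 0.55, 95% interval 0.41 to 0.69, adjusted p = 1.71e-05). Slc3a2 rose by 0.81 under heme-albumin, from 269 to 473 CPM, and by 0.21 under Hb (difference of Hb minus heme-albumin -0.60, interval -0.75 to -0.44, adjusted p = 1.89e-05). Ikbkg rose by 0.60 and 0.20 (difference -0.39, interval -0.52 to -0.26, adjusted p = 0.000393). Slc40a1 rose from 14.9 to 66.8 CPM under heme-albumin, a log2 fold change of 2.03 against 0.98 (difference -1.05, interval -1.52 to -0.57, adjusted p = 0.0224). Abcc1 followed (difference -0.33, interval -0.48 to -0.18, adjusted p = 0.0231), and Esd (-0.31, adjusted p = 0.0326) and Btbd11 (-0.48, adjusted p = 0.0425) were the others.

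For other genes no difference between the agents was shown. Hmox1 rose by 1.33 under heme-albumin against an uncalled 0.71 with Hb, and the difference of -0.61 (interval -1.17 to -0.05) had an adjusted p of 0.365. Il19 had log2 fold changes of 2.38 and 2.43 (difference 0.06, interval -1.04 to 1.17, adjusted p = 0.987). Gsr, at 0.28 under heme-albumin and 0.34 with Hb, and Pi15, at -0.66 and -1.09, had estimates further from 0 with Hb, and neither difference passed the test (adjusted p = 0.806 and 0.571).

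**Figure D5:**
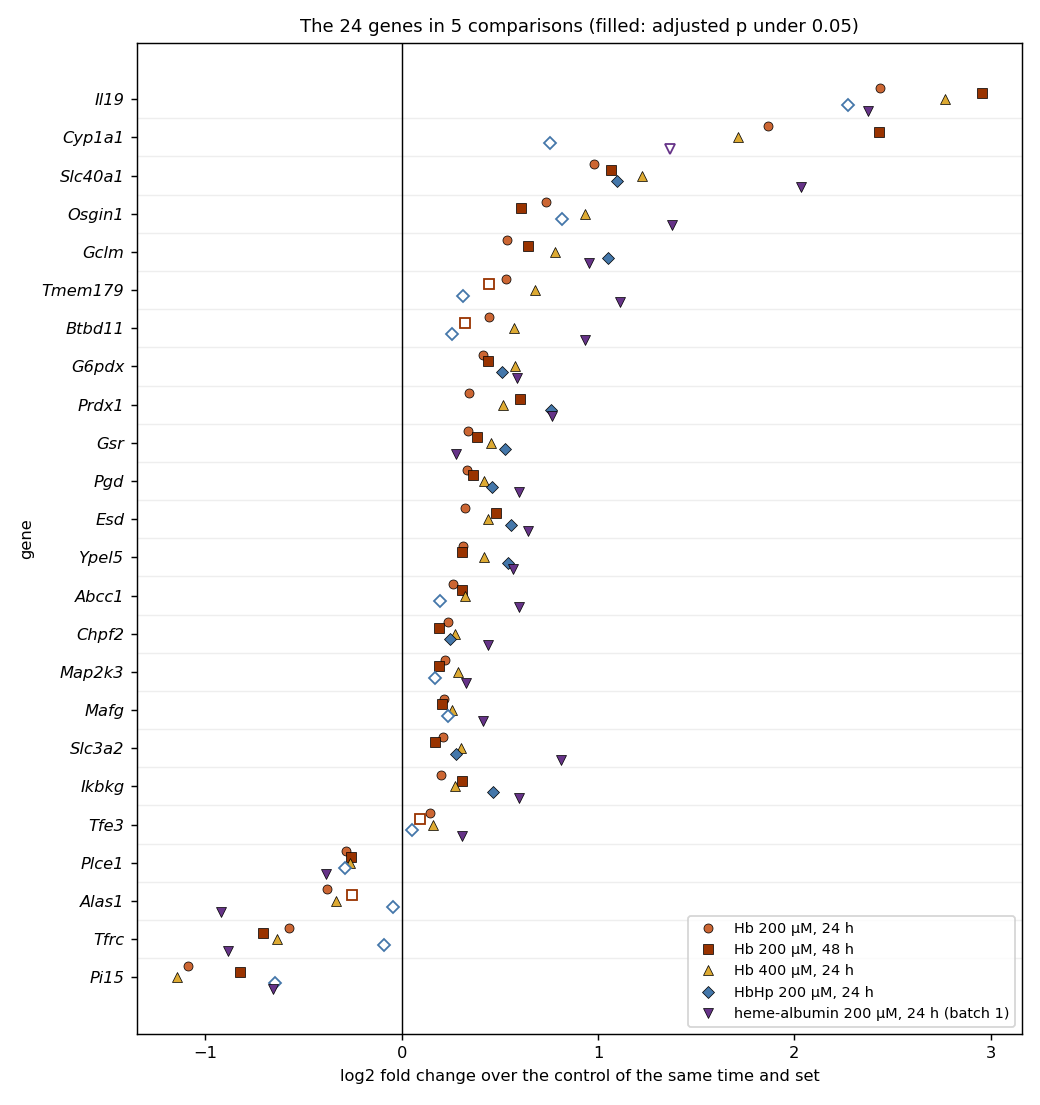
Log2 fold change over the respective control for the 24 genes in 5 comparisons, with filled symbols where the adjusted p was under 0.05. For most genes the symbols of Hb at 200 and 400 µM and at 48 h lie near each other, the heme-albumin symbols of Slc40a1, Slc3a2 and Alas1 lie further from 0, and the 3 comparisons with 24 h control of batches 2 and 3 share those controls.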

How the data were processed

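The deposited values are counts: for each library the authors gave the whole number of reads assigned to every Ensembl gene, unnormalized. Libraries were made with a TruSeq mRNA kit, the submitters' processing notes name featureCounts and GRCm39, and the aligner and strand setting are not given in the sources used here. The files list 25528 genes. Groups come from the treatment labels, and 21 libraries of the series whose labels leave the condition open were not used. Tests used edgeR 4.0.16 in R 4.3.3, with filterByExpr (smallest count 10, smallest total 15), TMM scaling, batch and round as terms, the quasi-likelihood F test and Benjamini-Hochberg adjustment at 0.05. Each SE was derived from the fold change and its F statistic. DESeq2, the tool that the study names for its own tests (version 1.42.0 here), and the other settings of the closing section were alternatives. The fits were also run on counts simulated without batch, round or shared-animal effects, so that run does not cover these sources of spread. No libraries of a group were alike within sampling noise. Named are the genes of the study, every called gene and, in each list, up to 4 further members by p, shown where p was under 0.05. The genes and lists were chosen with earlier results of these data known. Promoters and exon overlaps were read from RefSeq GRCm38.p6 and GENCODE M21 in Python 3.11.15. 1 gene of the lists is not reported here.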

Additional observations from a re-analysis of the deposited data

Results flagged for a closer look

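Single libraries lay far from the rest of their group for 5 of 64 groups examined, where chance flags about 1 in 20. In Hb replicate 10 Cyp1a1 reached 1.73 CPM, the next library being at 0.773, and Mafg reached 134 CPM next to 123. In Hb replicate 5 Nqo1 reached 24.9 CPM next to 19.01, and Gsr 133 CPM next to 109. In control replicate 6 G6pdx reached 183 CPM next to 165. Without Hb replicate 10, Cyp1a1 and Mafg remained called.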

How the results depend on the processing

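Of the 24 called genes, all kept their direction under every alternative that tested them. DESeq2 called 59 genes. With batch alone 15 were called, with neither term 13, in round E1 alone 7 and in batch 2 and round E1 alone 3. Fits on a subset have fewer libraries, and for the other alternatives the cause was not tested. Leaving out 1 library gave 12 to 33 calls, the most without Hb replicate 9, the fewest without control replicate 1 (12) and control replicate 4 (12), and 15 without control replicate 2. The first library of each name code alone, chosen after seeing the data, gave 19 calls, 18 of them among the 24. Of the control and Hb pairs that share a title number or a name code, 3 of 9 and 6 of 10 correlated over 0.1 (up to 0.345 and 0.546). Below 0 lay 6 of 9 and 3 of 10, down to -0.485 for both kinds of pair. These correlations ran over all genes with round and choroid plexus level left in, so they cannot decide whether such libraries share an animal. With a replicate block by title number 5 genes were called, by name code 2. Free Hb and HbHp differed for 69 genes by DESeq2 and 824 with batch alone, and the effects of Hb and heme-albumin for 249 by DESeq2 and 71 without the round term. Of the named genes, Gpr84 and Lrp1, neither called in any of these fits, changed sign. The log2 fold change of Gpr84 was -0.069 with batch alone, -0.059 with neither term, -0.00981 with the sex letter, -0.00928 with the replicate block by name code, -0.037 with the choroid plexus term, -0.045 with 1 library per name code, and -0.099 to 0.12 without 1 library. That of Lrp1 was 0.083 in batch 2 alone, 0.020 in round E1 alone, 0.096 in both together, 0.031 and 0.012 with the replicate block by title number and by name code, and -0.060 to 0.023 without 1 library. Over the 24 genes, 239 values kept their call and 119 missed the threshold outside the leave-one-out fits. Depth limits Il19 and Cyp1a1, which were not tested when every library had to hold 10 counts.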
